A study of Mus musculus with 1248 samples.

Results

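The genes described here are 7 of the 40756 genes in the count table: the interleukin-1 ligands Il1a, Il1b and Il33, the interleukin-1 receptor antagonist Il1rn, the receptor Il1r1, the cytokine Tslp and the inducible nitric oxide synthase Nos2. They were picked by symbol, with their measured levels in these libraries already known, so every value below is a description and carries no test. Each gene was followed in CPM, a gene's counts scaled to the same total over all genes, in single wells and in counts summed over wells, in 7 groups and in tumour and host wells separately. A well was called a tumour well when its summed CPM of the epithelial keratins Krt8 and Krt18 was above its summed CPM of the blood-cell genes Ptprc, Coro1a, Laptm5 and Rac2, and a host well when it was below.

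The study followed bone colonisation by 4T1 and 4T1.2, 2 established mouse mammary carcinoma lines that carry firefly luciferase and mCherry. Cells were injected into the heart of female BALB/c mice. Hindlimb bones were taken 4, 10 or 16 days later for 4T1 and 4 days later for 4T1.2, and their mCherry-bearing cells were sorted. The other groups were 4T1 cells from a mammary fat pad tumour labelled day 22, and both lines grown in culture. Single cells were sorted into plates and their polyadenylated RNA was copied by a modified Smart-seq2 protocol, and wells whose mCherry qPCR gave a Ct above 30 had been dropped, so host wells are not a sample of the marrow. After filters on depth and quality, 1218 of 1248 cells remained: 54 tumour wells of 4T1 culture, 137 tumour and 359 host wells of 4T1 bone at day 4, 54 and 41 at day 10, 71 and 119 at day 16, 85 and 10 of the fat pad, 53 tumour wells of 4T1.2 culture, and 47 tumour and 188 host wells of 4T1.2 bone at day 4. Each line stands for 1 source of cells. No animal, culture or plate is named for a cell, so each group counts as 1 sample, no p-value is given, and the 95% intervals below (exact Poisson for summed CPM, exact binomial for shares of wells) cover counting error only.

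Interleukin-1 alpha and interleukin-1 beta are inflammatory cytokines that act through the same receptor, Il1r1 with its accessory chain Il1rap, and switch on NF-kB target genes such as chemokines and colony-stimulating factors. Il1rn occupies the receptor without activating it, and Il33 is an alarm cytokine of the same family that is kept in the nucleus and read by the receptor Il1rl1. Tslp is an epithelial cytokine read by Crlf2 together with Il7r, and Nos2 makes nitric oxide from arginine in activated macrophages and some tumour cells.

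Il1a and Il1b are neighbours on chromosome 2 (mm10, GENCODE M21): Il1a lies at chr2:129299610-129309972 and Il1b at chr2:129364570-129371139, both on the minus strand, 54.6 kb apart. Il1rn lies on the plus strand of the same chromosome at chr2:24336853-24351494, 105 Mb from Il1a. The bases before their start sites are shown because these neighbours had different patterns in tumour and host wells. They are RefSeq sequences of build GRCm38.p6, the 250 bases before the start, read 5′ to 3′ on the gene's strand, with matches in capitals. Both strands were searched for the AP-1 motif TGANTCA, for the TATA box TATAAA, for the kappa B motif GGGNNTTTCC and for the C/EBP motif TTGCNNAA. Il1rn has 3 start sites in that table, and the windows of its last starts overlap.
Il1a, chr2:129309973-129310222, minus strand: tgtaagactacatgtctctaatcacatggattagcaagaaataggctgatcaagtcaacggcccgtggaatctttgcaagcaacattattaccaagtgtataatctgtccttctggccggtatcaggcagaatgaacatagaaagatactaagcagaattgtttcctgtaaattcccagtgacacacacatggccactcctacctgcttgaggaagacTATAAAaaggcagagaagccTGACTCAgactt
Il1b, chr2:129371140-129371389, minus strand: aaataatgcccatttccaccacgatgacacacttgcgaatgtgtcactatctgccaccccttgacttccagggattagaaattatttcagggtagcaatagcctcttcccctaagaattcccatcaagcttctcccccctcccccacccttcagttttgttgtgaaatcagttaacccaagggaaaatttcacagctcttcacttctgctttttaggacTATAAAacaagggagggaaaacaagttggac
Il1rn, start 1, chr2:24336610-24336859, plus strand: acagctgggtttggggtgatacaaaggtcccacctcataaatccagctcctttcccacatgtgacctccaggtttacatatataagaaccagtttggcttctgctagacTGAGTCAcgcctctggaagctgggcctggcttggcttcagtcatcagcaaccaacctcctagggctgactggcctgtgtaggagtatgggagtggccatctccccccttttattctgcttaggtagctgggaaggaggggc
Il1rn, start 3, chr2:24345121-24345370, plus strand: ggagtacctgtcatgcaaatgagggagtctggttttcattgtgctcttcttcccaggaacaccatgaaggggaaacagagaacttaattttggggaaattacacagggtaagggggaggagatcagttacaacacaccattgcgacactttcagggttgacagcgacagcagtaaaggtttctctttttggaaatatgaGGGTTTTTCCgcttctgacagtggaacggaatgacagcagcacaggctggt
In Il1a, TATAAA lay 32 to 27 bases and TGACTCA 12 to 6 bases before the start, and in Il1b TATAAA lay 31 to 26 bases before it. Start 1 of Il1rn had TGAGTCA 141 to 135 bases before it, and start 3 had GGGTTTTTCC 51 to 42 bases before it. Of 32851 mouse promoter windows of this length, 6.75% held TGANTCA, 12.4% TATAAA, 1.41% GGGNNTTTCC and 9.56% TTGCNNAA. A match describes these letters only. Promoters of 5 of the 7 genes were in the table, with 9 start sites in all. Il33, at chr19:29925114-29960718, had TATAAA before both of its starts, 203 to 198 and 29 to 24 bases away. Il1r1, at chr1:40225080-40317257, had TTGCTGAA 133 to 126 bases before its first start. Nos2 lies at chr11:78920787-78960254.

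The median well of each group held between 2647150 and 3054740 counts in genes. The summed keratin and blood-cell levels put 52 of 501 tumour wells and 37 of 717 host wells within 10-fold of the other kind. These tumour wells were not spread evenly. In 4T1.2 at day 4 only 22 of 47 tumour wells were at least 10-fold apart, against 126 of 137, 45 of 54 and 64 of 71 in 4T1 bone at days 4, 10 and 16. The median blood-cell sum was 212 CPM in the 4T1.2 tumour wells, against 46.8, 25.3 and 43.0 CPM in those of 4T1. The wells nearest the line had 804 CPM of keratin against 780 CPM of blood-cell genes on the tumour side, and 432 against 443 CPM on the host side. In 4T1 at day 4 the median mCherry level was 1905 CPM in host and 405 CPM in tumour wells. The other reporter, luciGFP, had medians of 0.616 and 64.0 CPM there. In every other in vivo group the median mCherry level was higher in tumour wells. All 8 epithelial markers were at 5 CPM or more in the summed tumour wells of 4T1 culture, day 4, day 16 and the fat pad, 7 at day 10, and 4 in each 4T1.2 group. Tumour wells from bone also held neutrophil transcripts: the 10 neutrophil markers summed to 1868 CPM in 4T1 at day 4, 3420 at day 10, 4153 at day 16 and 4011 in 4T1.2 at day 4, against 9.06 in 4T1 culture, 181 in 4T1.2 culture and 96.6 in the fat pad. Host wells of the fat pad held 138 CPM of the epithelial markers, 7 of the 8 at 5 CPM or more, against 8548 CPM in the tumour wells of that group.

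The 7 genes split by kind of well in vivo. Tslp and Il1r1 were higher in tumour wells in all 5 in vivo groups, and Il1b and Il1rn were higher in host wells in all 5. Il1a and Nos2 were higher in host wells at day 10, at day 16 and in the fat pad, and Il33 was higher in tumour wells at day 16 and in the fat pad. Here and below, higher or lower means at least 2-fold apart in CPM with 5 CPM added to each side, for genes with at least 5 CPM on 1 side. Summed over wells, Tslp was 58.3-fold higher in tumour than host wells in 4T1 at day 4, 41.6-fold at day 10, 10.4-fold at day 16, 74.1-fold in the fat pad and 11.4-fold in 4T1.2 at day 4. The lower fold at day 16 rests on 1 host well, since without the top well of each side Tslp was at 209 CPM in tumour and 2.59 CPM in host wells. Il1b ran the other way, 29.3-fold, 14.7-fold, 28.2-fold, 353-fold and 14.9-fold lower in tumour wells in the same order. Single wells set the size of these folds: without the top well of each side, Il1b was at 9.13 CPM in tumour against 231 CPM in host wells at day 10, 7.53 against 721 CPM at day 16 and 2.43 against 526 CPM in the fat pad.

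Between tumour and host wells of the same group, 2 genes were higher and 2 lower of 5 measured at day 4, against 17.0% and 19.6% of all genes. At day 10 it was 2 and 4 of 6, against 24.6% and 18.5%. At day 16 it was 3 and 4 of 7, against 23.9% and 17.9%. In the fat pad it was 3 and 4 of 7, against 36.3% and 17.2%, and in 4T1.2 at day 4 2 and 2 of 4, against 16.1% and 20.5%. The genes had been picked with this contrast known, so nothing is read from these counts.

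**Figure D1:**
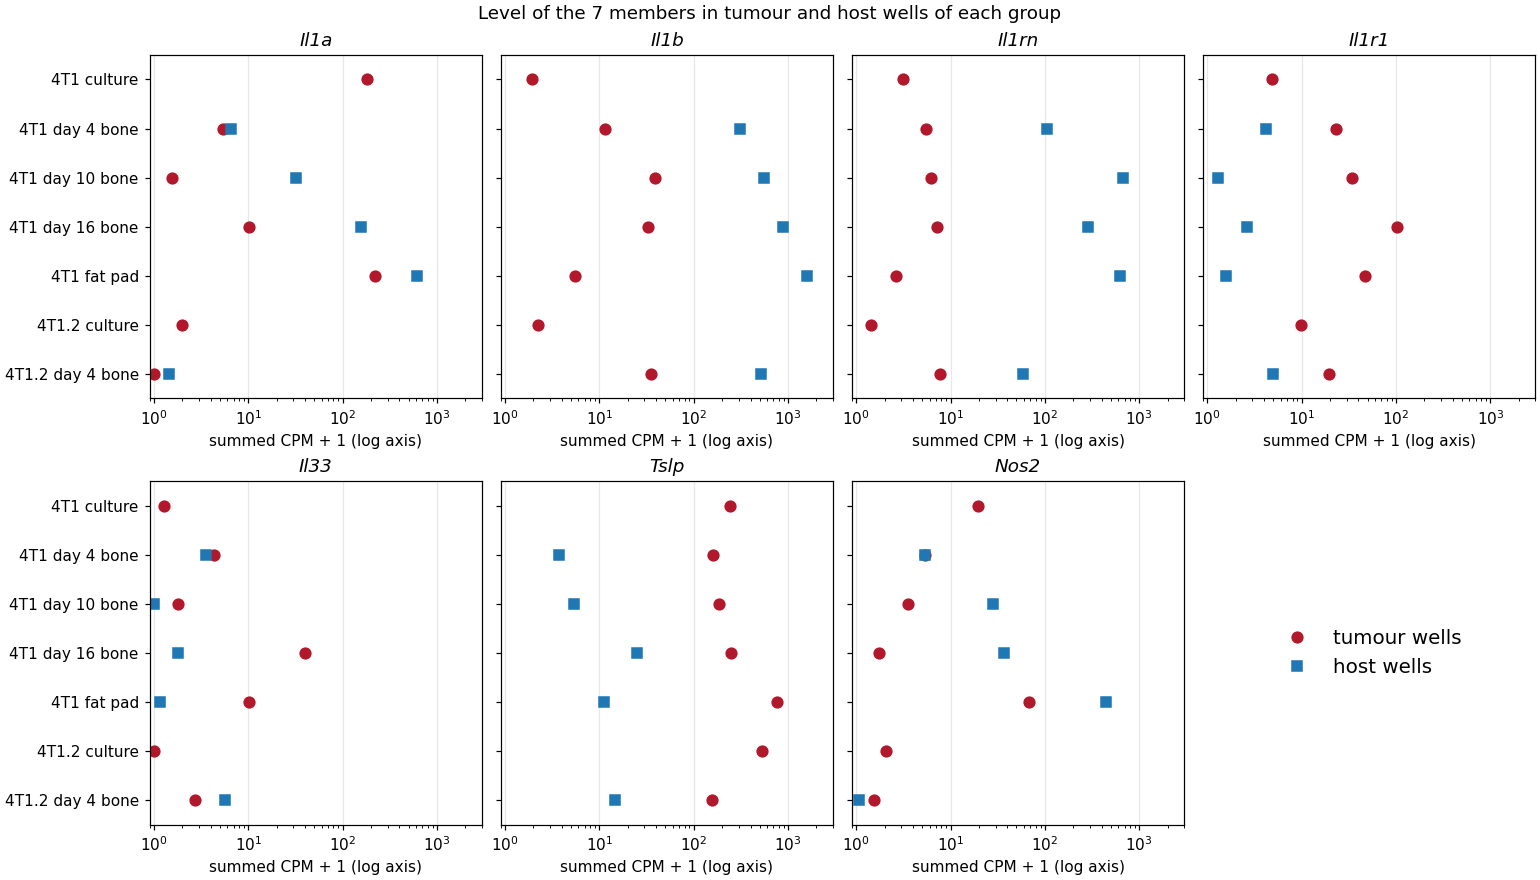
Summed CPM plus 1 (log axis) of each gene in the 7 groups, tumour wells as red circles and host wells as blue squares. Cultures have no host wells. Tslp and Il1r1 lie to the right in tumour wells, Il1b and Il1rn to the right in host wells.

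Il1a, the interleukin-1 that can act without being cut, was abundant in tumour wells of 4T1 culture and of the fat pad and low in every bone group. Its summed level in tumour wells was 180 CPM (95% interval 178 to 182) in cultured 4T1 cells, 4.38, 0.570 and 9.25 in bone at days 4, 10 and 16, and 222 (220 to 224) in the fat pad tumour. In 4T1.2 it was 0.982 CPM in culture, and no count was seen among the 138848006 counts of its day 4 tumour wells, where 3 counts would be 0.0216 CPM. The level was 41.1-fold lower at day 4 than in 4T1 culture and 184-fold lower in 4T1.2 culture than in 4T1 culture. No neighbours in this order had overlapping counting intervals. Single wells weighed on the bone values, which were 2.70, 0.207 and 5.92 CPM at days 4, 10 and 16 without the top well.

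The same split was seen well by well. In 4T1 culture 47 of 54 tumour wells (87.0%, 75.1 to 94.6%) had at least 10 CPM of Il1a, with a lowest value of 0.623, a median of 147 and a highest of 641 CPM. At day 4 it was 8 of 137 wells, at day 10 1 of 54 and at day 16 4 of 71, with highest values of 212, 19.0 and 272 CPM and medians of 0, 0 and 1.14 CPM. In the fat pad 38 of 85 wells (44.7%, 33.9 to 55.9%) reached 10 CPM. Of those 38 wells, 32 reached 100 CPM, and the group ran from a lower quartile of 3.97 and a median of 5.74 CPM to an upper quartile of 306 and a highest value of 1969 CPM. All 85 wells had at least 1 count, and the lowest held 1.94 CPM. The highest of the 53 wells of 4T1.2 culture held 3.65 CPM. Il1a counts were thus present in every fat pad well, and the source of those under 10 CPM was not tested.

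In host wells Il1a was 5.52, 31.2 and 157 CPM at days 4, 10 and 16, 621 in the fat pad tumour and 0.451 in 4T1.2 at day 4. A single well held 35.5% of the day 16 counts and another 61.1% of those of the fat pad, and the levels without them were 102 and 268 CPM. Without that fat pad well, and without the top tumour well, the log2 ratio of tumour to host wells moved from -1.46 to -0.38 and was no longer 2-fold. An antisense transcript, Gm14023 (chr2:129297370-129307826, plus strand), shares 222 exonic bases with Il1a. The library kit does not mark strand, so reads from the shared bases cannot be assigned to one of the pair. Gm14023 itself was at 5.28 CPM in 4T1 culture, 35.2 CPM in fat pad tumour wells and 114 CPM in fat pad host wells.

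**Figure D2:**
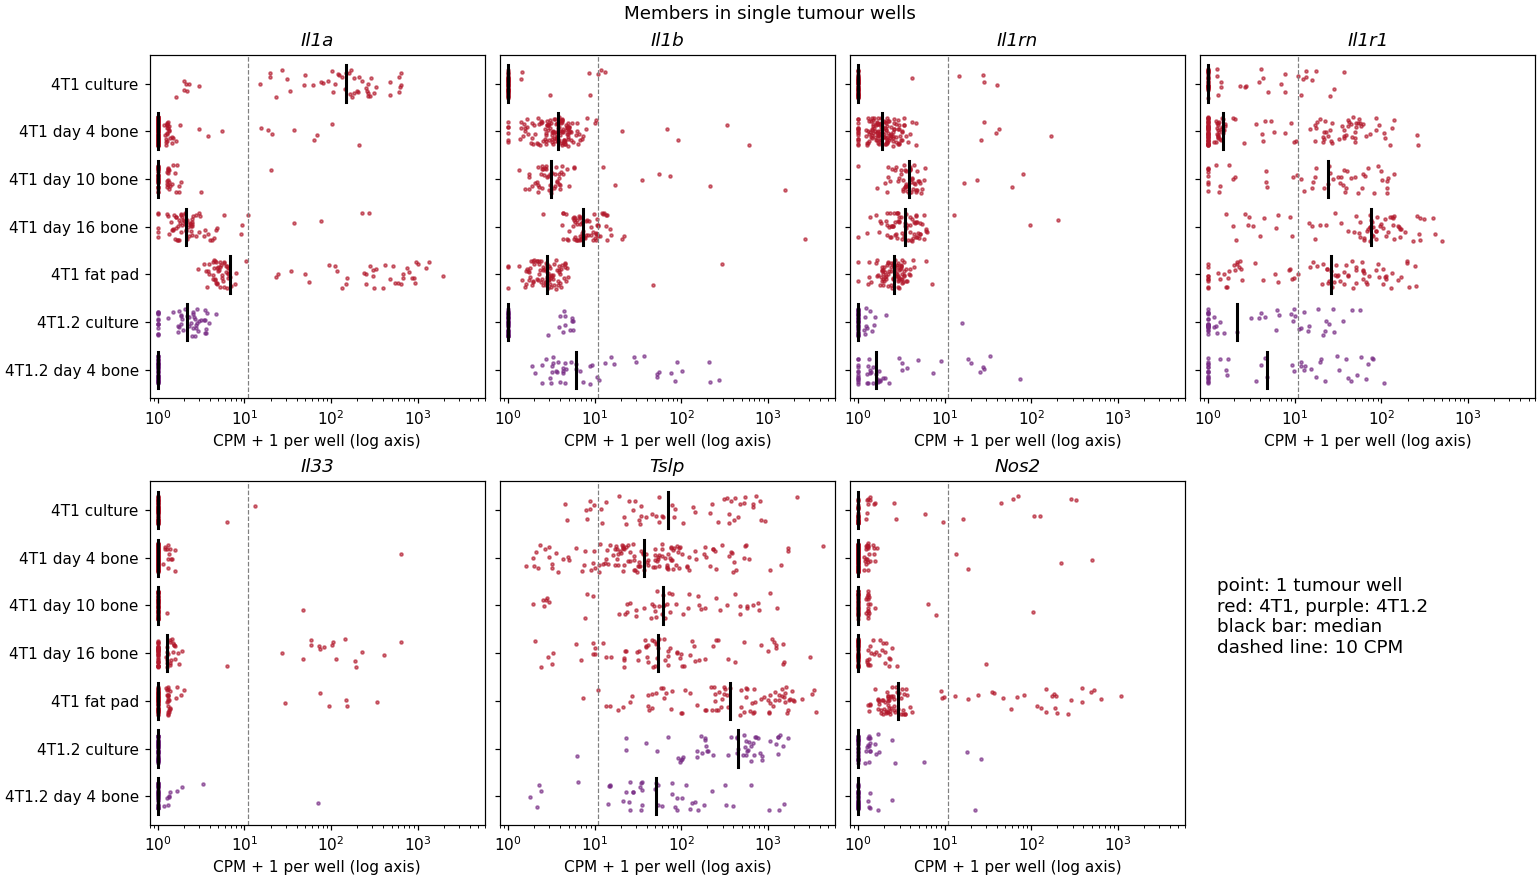
CPM plus 1 (log axis) of each gene in single tumour wells, by group. Each point is 1 well, the black bar is the median and the dashed line marks 10 CPM. In the fat pad, 32 wells lie above 100 CPM of Il1a around a median of 5.74 CPM. Tslp is spread over the whole range in every group, and Il33 is above 10 CPM in few wells outside day 16.

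Il1b, the interleukin-1 that inflammasomes process, had the highest summed level of the ligands Il1a, Il1b and Il33 in all 5 groups of host wells. Per kb of exon it was the highest of the 7 genes in all 5 groups of host wells, from 162 CPM per kb in 4T1 at day 4 to 831 in the fat pad. Its summed level in host wells was 308 CPM (307 to 309) in day 4 bone of 4T1, 552 and 892 at days 10 and 16, 1585 in the fat pad tumour and 513 in day 4 bone of 4T1.2. At least 10 CPM was reached by 88 of 359, 20 of 41, 79 of 119, 4 of 10 and 130 of 188 host wells in that order. The spread was wide, with medians of 3.81, 9.93, 17.3, 4.01 and 72.3 CPM and highest values from 6537 to 13426 CPM. One fat pad well held 70.2% of the counts, the same well that held most of the Il1a. At day 10 a single well held 59.2%, and the level without it was 231 CPM. In the fat pad the median host well held more Il1a than Il1b, 143 against 4.01 CPM, and 7 of 10 wells reached 10 CPM of Il1a.

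In tumour wells Il1b was 0.956 CPM for cultured 4T1 cells and 1.26 for cultured 4T1.2 cells, whose counting intervals overlap, and 4.48 in the fat pad. In bone it was 10.5 CPM at day 4, 37.4 at day 10, 31.6 at day 16 and 34.4 in 4T1.2 at day 4. A fat pad well held 46.1% of the counts, and a day 4 well 41.5%. At days 10 and 16 of 4T1 in bone a single well held 76.0% and 76.4% of the counts. Those wells carried 1564 and 2698 CPM of Il1b, and also 716 and 1910 CPM of the blood-cell genes beside 1232 and 4026 CPM of keratin. Among tumour wells whose keratin sum was at least 10-fold above the blood-cell sum, Il1b was 3.48 CPM at day 4, 2.68 at day 10, 7.50 at day 16 and 11.8 in 4T1.2 at day 4. Across wells, Il1b and the blood-cell sum had a Spearman rho of 0.67 at day 16 (n = 71). The part of blood cells in the Il1b of tumour wells was not tested.

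Nearly every tumour well from mice held a few Il1b counts. At least 1 count was present in 131 of 137 wells at day 4, 54 of 54 at day 10, 71 of 71 at day 16, 82 of 85 of the fat pad and 47 of 47 of 4T1.2 at day 4, against 8 of 54 and 12 of 53 in the cultures. Most stayed low, since 5, 7, 16, 2 and 17 wells in that order reached 10 CPM, and the medians were 2.77, 2.12, 6.37, 1.81 and 5.08 CPM. In 4T1.2 at day 4 no single well held more than 19.7% of the counts. The share at day 16 depended on depth: 22.5% of wells reached 10 CPM as sequenced, and 40.6% after each well was thinned to 500000 counts.

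Il33 was at 38.5 CPM (37.7 to 39.3) in tumour wells of 4T1 bone at day 16 and at 9.13 CPM in the fat pad, and at 3.38 CPM or less in the other 5 groups. One fat pad well held 40.1% of the counts there, and the level without it was 5.53 CPM. At day 16, 16 of 71 wells (22.5%, 13.5 to 34.0%) had at least 10 CPM, 9 of them at least 100 CPM, while the median was 0.279 CPM and the highest 636 CPM. There the top 3 wells held 65.7% of the counts. The first of them, with 34104356 counts in all and 74.0 CPM of Il33, held 28.2%, and the level without it was 32.4 CPM. In the fat pad, 6 of 85 wells reached 10 CPM. At day 4, at day 10 and in 4T1.2 at day 4 a single well held 99.0%, 99.2% and 95.4% of all Il33 counts, with 646, 46.9 and 70.0 CPM, so those sums describe 1 well each. Culture gave 0.277 CPM in 4T1 and no count in 4T1.2. Host wells ranged from 0.00894 CPM (1 count) at day 10 to 4.61 CPM in 4T1.2 at day 4.

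Day 16 tumour wells also held transcripts of 8 fibroblast and stroma markers. Their summed level was 1207 CPM, 6 of the 8 at 5 CPM or more and none at 0, against 6.19 to 46.1 CPM in the other 6 groups of tumour wells. Col1a1, Col1a2 and Col3a1 led it with 667, 251 and 198 CPM, while their medians per well were 4.21, 0.828 and 0.964 CPM. Across the 71 wells Il33 had a Spearman rho of 0.18 with the summed markers and Il1r1 one of 0.37. Il1r1 also had a rho of -0.42 with the keratin sum and of -0.38 with the mCherry reporter in those wells. The part of stromal transcripts in either gene was not tested.

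Il1rn, which blocks the receptor, was a host-well gene at every stage. Host wells held 103 CPM in day 4 bone of 4T1, 675 and 286 at days 10 and 16, 625 in the fat pad tumour and 57.9 in day 4 bone of 4T1.2, and at least 10 CPM was present in 71 of 359, 26 of 41, 71 of 119, 8 of 10 and 69 of 188 wells. The medians, at 1.17, 256, 43.5, 371 and 1.88 CPM, ranked the groups as the shares of wells did, with the fat pad first and 4T1 at day 4 last. Tumour wells stayed between 0.431 CPM in 4T1.2 culture and 6.82 CPM (6.39 to 7.27) in 4T1.2 at day 4, and the latter overlapped the 6.26 CPM of 4T1 at day 16 within counting error. Without the top well, 4T1 stood at 1.91 CPM at day 4 and 3.40 CPM at day 16. No fat pad tumour well and at most 7 wells in any other group reached 10 CPM. In host wells of bone the antagonist stood at 675 CPM against 31.2 CPM of Il1a and 552 CPM of Il1b at day 10, and at 286 against 157 and 892 CPM at day 16. The day 10 level of Il1b rests on 1 well, and without the top well of each gene Il1rn was at 580 and Il1b at 231 CPM. Per kb of exon, those levels were 122 CPM for Il1rn, 15.8 for Il1a and 289 for Il1b at day 10, and 51.6, 79.3 and 468 at day 16.

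Il1r1, the signalling receptor, was carried by tumour wells and was highest late in bone. Its summed tumour-well level was 3.88 CPM in cultured 4T1 cells, 22.0, 33.2 and 102 (101 to 103) in bone at days 4, 10 and 16, and 46.1 in the fat pad tumour. For 4T1.2 it was 8.76 in cultured cells and 18.3 in day 4 bone. The order from high to low was day 16, fat pad, day 10, day 4, 4T1.2 day 4, 4T1.2 culture and 4T1 culture, and no neighbours overlapped within counting error. The share of wells with at least 10 CPM was 9 of 54, 51 of 137, 35 of 54, 58 of 71 (81.7%, 70.7 to 89.9%), 52 of 85, 15 of 53 and 21 of 47 in the order first given. The medians were 0, 0.475, 23.3, 75.5, 25.0, 1.14 and 3.81 CPM, with day 16 first in both measures. At day 16 the lower quartile was 24.8 and the highest well 502 CPM. A single well of 34104356 counts held 12.6% of the Il1r1 counts of that group, and the level without it was 104 CPM. Host wells stayed at 0.304 to 3.93 CPM. The accessory chain Il1rap was at 32.6 CPM in cultured 4T1 cells, 34.5, 37.7 and 30.1 CPM in bone at days 4, 10 and 16, and 36.8 CPM in the fat pad tumour, all within 2-fold of each other.

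Tslp was present in most tumour wells of every group. Its summed level was 241 CPM (238 to 243) in cultured 4T1 cells, 159, 185 and 247 (245 to 249) in bone at days 4, 10 and 16, and 755 (752 to 759) in the fat pad tumour. For 4T1.2 it was 524 in cultured cells and 155 in day 4 bone. At least 10 CPM was reached by 47 of 54, 113 of 137, 45 of 54, 60 of 71, 83 of 85, 52 of 53 and 42 of 47 wells. Per kb of exon it was the highest of the 7 genes in the tumour wells of all 7 groups, from 116 CPM per kb in 4T1.2 at day 4 to 567 in the fat pad. The medians were 69.0, 35.7, 61.1, 52.4, 368, 458 and 50.4 CPM, so the fat pad and 4T1.2 culture stood apart from the other groups in the typical well as well as in the sum. Single wells varied widely, for example from 3.59 to 2148 CPM in 4T1 culture and from 0.616 to 4369 CPM at day 4.

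In 4T1.2, Tslp was 3.39-fold lower in bone at day 4 than in culture, with medians of 50.4 and 458 CPM. In 4T1 the day 4 level was 1.52-fold below culture and did not reach 2-fold, with medians of 35.7 and 69.0 CPM. Without the top well of each group, day 4 and culture were at 117 and 204 CPM in 4T1 and at 118 and 493 CPM in 4T1.2. Both lines had nearly the same level at day 4 in bone, 159 and 155 CPM, although 4T1.2 had started 2.18-fold above 4T1 in culture. Host wells held 2.72, 4.45, 23.8, 10.2 and 13.6 CPM. At day 16 a single host well of 13183380 counts, with 221 CPM of keratin, held 89.6% of the host counts, and the level without it was 2.59 CPM. All 10 host wells of the fat pad lay between 7.65 and 15.0 CPM, with a median of 9.68 CPM, beside the epithelial markers those wells held. In 4T1.2 at day 4, 1 host well held 38.8% of the Tslp counts, and it lay near the line between the kinds of well, with 1406 CPM of keratin and 1581 CPM of blood-cell genes.

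Nos2, which makes nitric oxide, was seen in tumour wells of the fat pad and, in fewer wells, of 4T1 culture. The summed levels were 18.8 CPM in cultured 4T1 cells, 4.33, 2.56 and 0.745 in bone at days 4, 10 and 16, and 67.5 (66.5 to 68.6) in the fat pad tumour. For 4T1.2 they were 1.10 in cultured cells and 0.562 in day 4 bone. The values at day 16 and in 4T1.2 at day 4 overlap within counting error. Single wells carried the bone values of 4T1, with 47.7%, 86.9% and 59.0% of the counts, and without them the levels were 2.29, 0.343 and 0.310 CPM. In 4T1 culture the top well held 31.1% and the top 3 wells 74.3% of the counts. The median there was 0 CPM, and the level without the top well was 13.2 CPM. Without the top well, 4T1.2 was at 0.585 CPM in culture and 0.125 CPM in bone. At least 10 CPM was reached by 8 of 54, 4 of 137, 1 of 54, 1 of 71, 26 of 85 (30.6%, 21.0 to 41.5%), 2 of 53 and 1 of 47 wells. The highest fat pad well held 1077 CPM and 19.9% of the counts. Host wells held 4.37, 27.4 and 35.8 CPM at days 4, 10 and 16, 440 in the fat pad tumour and 0.0841 in 4T1.2 at day 4, where none of 188 wells reached 10 CPM. At day 16, 1 host well with 2166 CPM held 59.8% of the counts, and the level without it was 14.6 CPM.

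The tumour-well comparisons of the design are given next, with the share of all measured genes that moved as far in that direction. They share groups: 4T1 culture stands in 3 of them and 4T1 day 4 in 4, so they are not independent. Between bone at day 4 and 4T1 culture, 5 of the 7 genes were measured. Il1b (log2 ratio 1.38) and Il1r1 (1.60) were higher, as were 5.18% of genes, and Il1a (-4.30) and Nos2 (-1.35) were lower, as were 3.60%. The Il1b ratio was under 2-fold in wells at least 10-fold apart (0.51) and without the top wells (0.97). In 4T1.2, with 4 genes measured, Il1b (2.65) and Il1rn (1.12) were higher at day 4 than in culture, against 6.17% of genes, and Tslp (-1.73) was lower, against 3.15%. The Il1rn ratio was under 2-fold with wells weighted equally (0.97), without the top wells (0.99) and in wells at least 10-fold apart (0.53). Il1r1 went from 8.76 to 18.3 CPM in that line and stayed under 2-fold on this scale (0.76).

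Later in bone the receptor and Il33 moved further. From day 4 to day 10, with 4 genes measured, Il1b alone passed 2-fold (1.45, against 4.64% of genes), and none was lower, against 2.73%. Without the top well of each group it was 0.34, and among wells at least 10-fold apart -0.14. From day 4 to day 16, with 6 measured, Il1r1 (1.98), Il33 (2.38) and Il1b (1.24) were higher, against 10.2% of genes, and none was lower, against 9.28%. Without the top wells the Il1b ratio was 0.16, in wells at least 10-fold apart it was 0.56, and that of Il33 stayed at least 2-fold.

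The fat pad and day 16 bone were at least 2-fold apart in 6 of the 7 genes, against 11.7% of all genes in either direction, though not all 6 held in every setting. Compared with 4T1 culture, with 5 genes measured, fat pad wells were higher in Il1r1 (2.53), Tslp (1.63), Nos2 (1.61) and Il33 (1.42), against 10.7% of genes, and lower in none, against 13.3%. Compared with the fat pad, with all 7 measured, day 16 bone was lower in Il1a (-3.99), Nos2 (-3.66) and Tslp (-1.59), against 4.23% of genes. It was higher in Il1b (1.95), Il33 (1.62) and Il1r1 (1.06), against 7.48%. The Il1b ratio was 0.75 without the top wells and 0.40 in wells at least 10-fold apart, and that of Il1r1 was 0.98 with TMM scaling. Between the lines in culture, with 4 measured, 4T1.2 was higher in Tslp (1.11), against 3.62% of genes, and lower in Il1a (-4.95) and Nos2 (-1.96), against 4.98%. At day 4 in bone, with 4 measured, the lines were 2-fold apart in Il1b alone (1.34 higher in 4T1.2, against 4.19% of genes), and no gene was lower, against 5.07%. In wells at least 10-fold apart that ratio was 0.98.

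**Figure D3:**
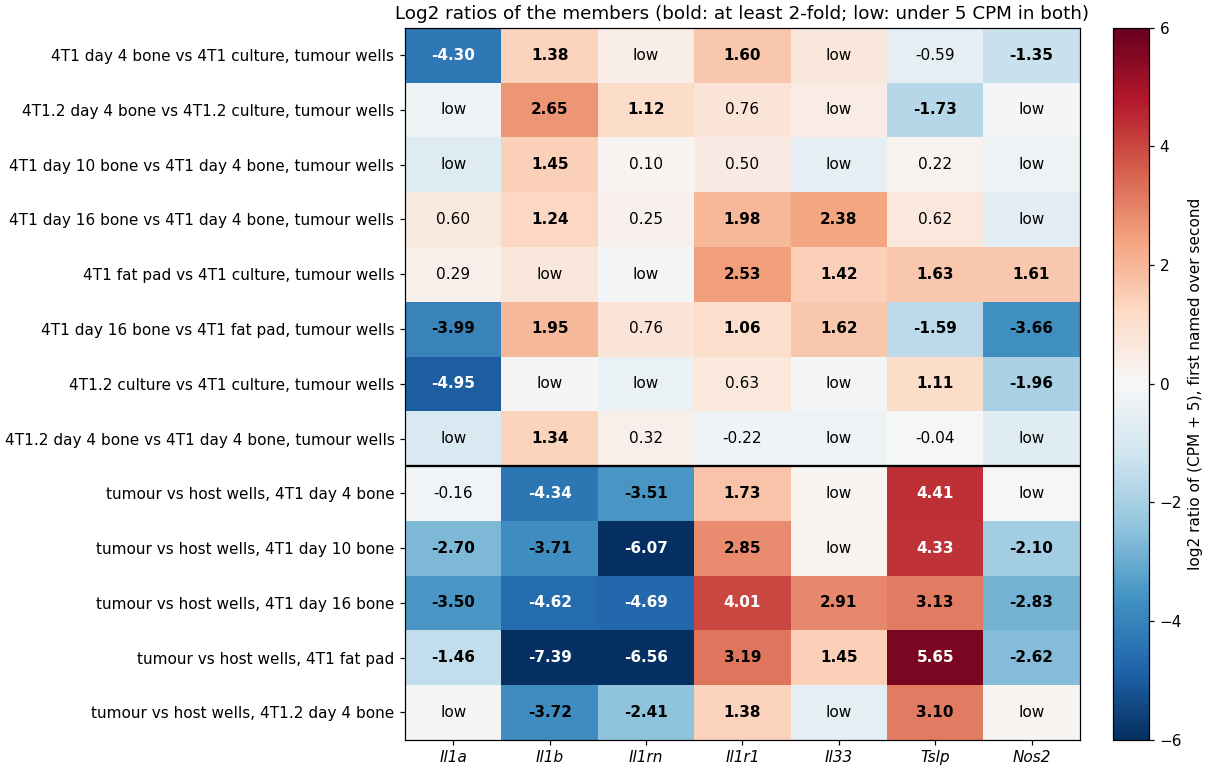
Log2 ratios of CPM plus 5 for the 8 tumour-well comparisons (above the line) and the 5 comparisons of tumour with host wells (below it). Bold marks ratios of at least 2-fold, and low marks genes under 5 CPM on both sides. Il1b and Il1rn are blue and Tslp and Il1r1 red in all 5 comparisons with host wells.

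The 717 host wells were clustered without the 7 genes, and 13 clusters resulted, of which 8 could be named from markers. Il1a and Nos2 sat in a single cluster of 103 wells led by Arg1, C1qa, C1qb and C1qc (monocyte/macrophage-like), which held 89.0% of the host Il1a counts, 89.8% of Nos2 and 63.3% of Il1rn with 14.4% of the wells. There, 53 of 103 wells had at least 10 CPM of Il1a, 27 of Nos2, 81 of Il1rn and 66 of Il1b. Pf4 and Cxcl9 were also among its leading genes.

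Il1b was spread over more clusters. It was highest in 2 neutrophil-like clusters, at 1906 CPM in 48 wells led by Asprv1, Stfa2 and Mmp8 (38 of them of day 16) and at 1344 CPM in 60 wells led by Ifit1, Slfn4, Prok2 and Retnlg (53 of them of 4T1 day 4). A neutrophil-like cluster of 53 wells led by Fcnb, Camp, Ngp and Ltf, which encode granule proteins of less mature neutrophils, held 6.50 CPM, and 1 of its wells reached 10 CPM. The macrophage-like wells held 578 CPM. An unnamed cluster of 99 wells, whose leading genes include Ctsg, Mpo, Prtn3 and Elane beside immunoglobulin genes, held 463 CPM. In the erythroid-like cluster, led by globin genes, 28 of 57 wells also reached 10 CPM of Il1b, at a summed 306 CPM. In that cluster 8 neutrophil markers had a median of at least 50 CPM beside 7 erythroid ones, and the part of RNA from neighbouring cells in such wells was not tested. Il1rn was at 732 CPM in the macrophage-like wells and at 266 and 247 CPM in the first 2 neutrophil-like clusters.

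Host counts of Tslp and Il1r1 rested in part on small clusters and single wells. An unnamed cluster of 20 wells led by Col1a1, Col1a2 and Wfdc2 held 127 CPM of Tslp, with 12 wells at 10 CPM or more, and 26.6 CPM of Il1r1, which is 34.6% and 22.3% of the host counts. It held 4 wells of 4T1 at day 4, 1 of day 10 and 15 of 4T1.2. In that cluster alone epithelial markers had a median of at least 50 CPM, 2 of them, beside 9 neutrophil and 5 B cell markers. Across the 188 host wells of 4T1.2, Tslp had a Spearman rho of 0.52 with the keratin sum. The part of tumour-cell transcripts in the Tslp and Il1r1 of such wells was not tested. A plasmacytoid-like cluster of 23 wells held 23.2 CPM of Il1r1, of which 1 well gave 90.0%. Larger clusters held much of the rest of Il1r1, 21.2% of the host counts in the B cell-like and 16.2% in the erythroid-like one. The 55.2 CPM of Tslp and 53.1 CPM of Il1a in the cluster led by Asprv1 came from single wells, which gave 97.3% and 98.0% of the counts. Of the host Il33 counts, 41.4% were in a B cell-like cluster of 103 wells led by Vpreb1, Dntt and Igll1, where 9 wells reached 10 CPM.

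**Figure D4:**
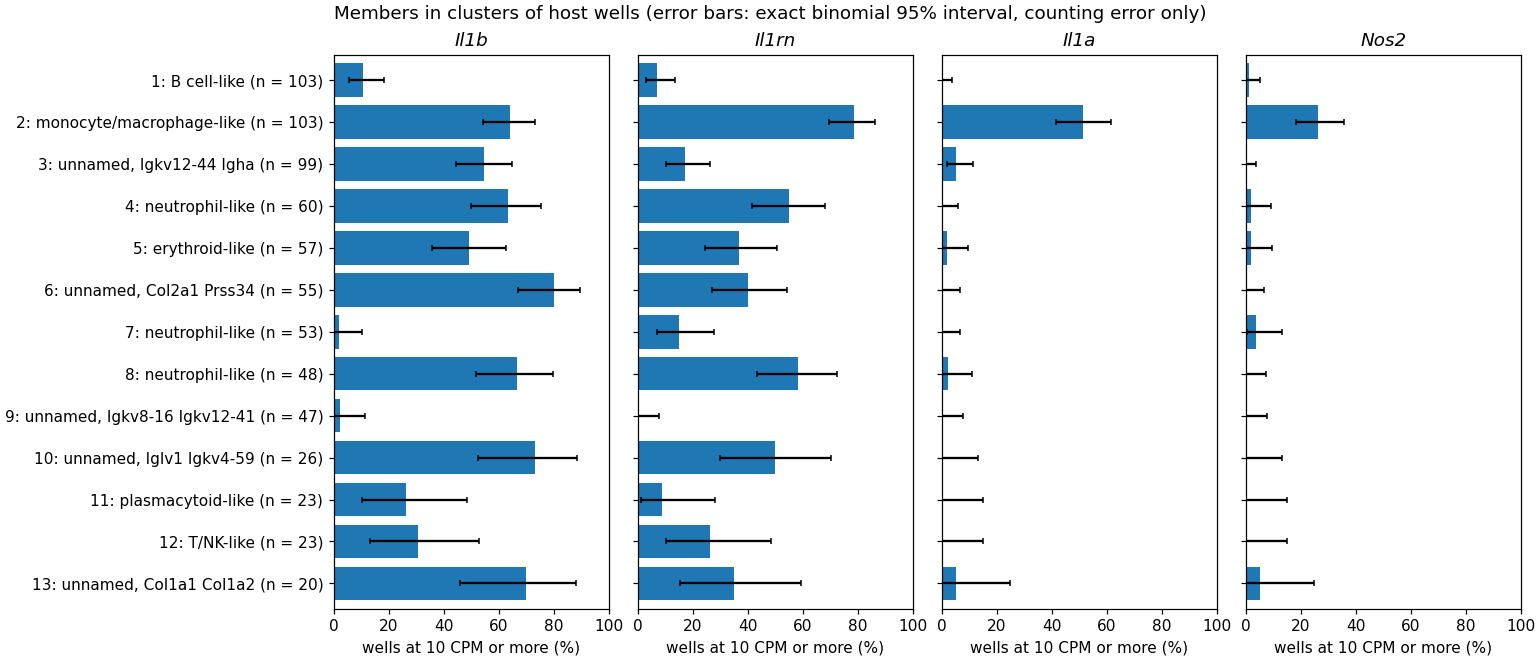
Share of host wells with at least 10 CPM (%) of Il1b, Il1rn, Il1a and Nos2 in the 13 clusters, with exact binomial 95% intervals. Il1a and Nos2 are highest in cluster 2, Il1b is above 45% in 8 clusters and near 0 in clusters 7 and 9.

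Within the macrophage-like cluster the groups differed. Il1rn stood at 1625 CPM at day 4 (14 wells), 1467 at day 10 (17 wells), 378 at day 16 (61 wells) and 625 in the fat pad (10 wells), with medians of 728, 930, 81.1 and 371 CPM. Il1a was 137, 77.6, 251 and 621 CPM, and Nos2 50.2, 68.8, 66.0 and 440 CPM in the same order. The Nos2 sums rested on few wells, since 2, 7, 11 and 7 wells reached 10 CPM and 1 well held 94.4% of the counts at day 4. For Il1b the sums were 793, 161, 478 and 1585 CPM, and the medians, at 7.42, 31.0, 42.8 and 4.01 CPM, did not follow them.

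Tumour wells that carried Il1a and those that carried Nos2 overlapped in the fat pad. Of 38 wells with at least 10 CPM of Il1a and 26 with as much Nos2, 20 had both, which is 52.6% of the first and 76.9% of the second. Across the 85 wells the Spearman rho was 0.42. In 4T1 culture Il1a and Tslp had a rho of 0.41 over 54 wells, with 41 of the 47 wells of each at 10 CPM in both. Fat pad wells gave a rho of 0.11 for Il1a and Tslp, and at day 10 Il1r1 and Tslp had one of 0.44 over 54 wells. Wells of 1 group share an origin and differ in depth, so these are descriptions.

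**Figure D5:**
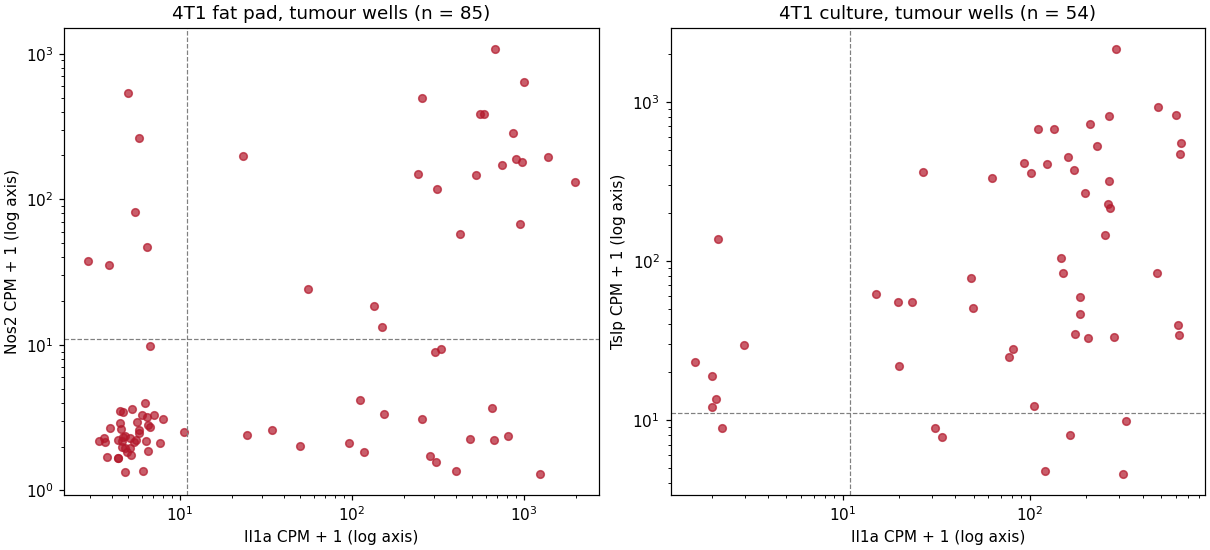
CPM plus 1 (log axes) of Nos2 against Il1a in 85 fat pad tumour wells (left) and of Tslp against Il1a in 54 tumour wells of 4T1 culture (right), 1 point per well, with dashed lines at 10 CPM. On the left 20 wells lie above both lines and 41 below both.

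The genes nearest to Tslp were read across wells. Among 6613 genes, those closest to it across the 54 wells of 4T1 culture were Lama3 (rho 0.72), Ptprf (0.65), Perp (0.64) and Cldn3 (0.64), and those furthest were Vim (-0.69) and Sparc (-0.61). Lama3 encodes a laminin chain of epithelial basement membranes, Cldn3 a tight-junction protein, and Vim the mesenchymal filament vimentin. The keratin sum itself had a rho of 0.19 with Tslp. Il1a was closest to Sdcbp2 (0.66) and Cldn3 (0.59) in the same wells. These genes were chosen after their values were seen. Across fat pad wells the gene closest to Tslp was the desmosomal cadherin Dsc2 (0.50), and those closest to Il1a were Gm14023 (0.57), which overlaps it, and Lama3 (0.52). For Il1b at day 16 the nearest were Lilr4b (0.74), Retnlg (0.70), Hp (0.70) and Lyz2 (0.69), which are genes of myeloid cells, and Col3a1 (-0.75) was furthest.

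Over the 7 tumour-well sums, the 3 genes most like each of the 7 by Pearson's r of log2 CPM plus 5 were as follows, as a description over 7 points among 8534 genes (8535 for Il1rn). Il1b was nearest to Cd53, Fcer1g and Tyrobp (r 0.993, 0.988 and 0.986), all 3 genes of blood cells. Il1a was nearest to Fbxw17 (0.987), Prkab1 (0.971) and Phldb2 (0.966), and Nos2 to Dmd, Rps7 and Zfas1 (0.988, 0.986 and 0.986). Il1r1 was nearest to Smad3, Bmp1 and Osr2 (0.986, 0.986 and 0.985), Il33 to Fndc3b, Mylip and Rnf13 (0.983, 0.981 and 0.979), Tslp to Uckl1, Stat2 and Dctn3 (0.954, 0.943 and 0.943), and Il1rn to Axin1, Rrad and Hdc (0.967, 0.948 and 0.947).

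The rest of the pathway was read from 7 lists. Of 15 genes that carry the receptor's signal to NF-kB, 14 were measured in every tumour-well comparison. Day 16 bone against the fat pad had 2 higher and 1 lower, against 7.48% and 4.23% of all genes. In 4T1.2, day 4 against culture had 1 higher and 1 lower, against 6.17% and 3.15%. In each other comparison no more than 1 moved, against 7.37% to 24.0% of all genes in either direction. Those that moved included Nfkb1, the p105 precursor, higher at day 4 than in culture in both lines (log2 ratios 1.57 in 4T1 and 1.16 in 4T1.2), and the adaptor Myd88, higher at day 16 than at day 4 (1.10). The 15 NF-kB targets moved in both directions. Against culture, 7 of 13 in fat pad wells were higher, led by Lcn2 (6.71), an iron-binding protein, and Nfkbiz (3.44), against 10.7% of all genes, and 5 were lower, against 13.3%, led by Cxcl5 (-3.41), a neutrophil attractant, and Ccl20 (-1.59), which draws lymphocytes. At day 4 against 4T1 culture it was 3 and 3 of 12, against 5.18% and 3.60%, with Lcn2 (2.39) and Nfkbia (2.11) higher and Cxcl5 (-4.59) and Ccl20 (-2.19) lower. In day 4 bone of 4T1.2, 6 of 12 were higher and 1 lower than in its culture, against 6.17% and 3.15%. In 4T1.2 culture against 4T1 culture 1 of 12 was higher (Lcn2, 3.76) and 7 lower, against 3.62% and 4.98%. From day 4 to day 16 it was 4 higher and none lower of 12, against 10.2% and 9.28%. The medians of the list were 1.68, 0.07, 0.97, -1.05 and 0.57, against -0.14, -0.06, -0.03, -0.01 and -0.02 over all genes measured. Day 4 tumour wells held 1868 CPM of neutrophil markers in 4T1 and 4011 CPM in 4T1.2, against 9.06 and 181 CPM in the cultures. Cxcl2, a member of the target list, stood at 618 and 506 CPM in 2 neutrophil-like host clusters. The part of blood-cell transcripts in the target counts of bone wells was not tested.

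Among other receptors of the family, the decoy Il1r2 had no count in tumour wells of 4T1 culture and stood at 9.12, 22.9 and 23.6 CPM in those of days 4, 10 and 16 and at 0.301 CPM in those of the fat pad, beside 303, 674, 509 and 85.4 CPM in the host wells of those groups. The Il33 receptor Il1rl1 stayed at 5.16 CPM or less in all tumour and host sums. Il18, a further ligand, was higher in fat pad wells than in culture (17.3 against 3.13 CPM), and so were the processing enzymes Casp1 (84.4 against 7.58 CPM) and Casp4 (39.9 against 3.11 CPM), 2 of 5 measured in that list, against 10.7% of all genes. None of 5 in that list moved at day 4 against culture in either line, against 8.77% and 9.32% of all genes in either direction. At day 16 against the fat pad 2 of 5 were lower and none higher, against 4.23% and 7.48%. Il1f9, the interleukin-36 gamma gene, was a host-well gene of bone, at 124, 131 and 204 CPM in 4T1 and 118 CPM in 4T1.2, and had no count in the fat pad. Both chains of the Tslp receptor were lower in tumour than host wells in all 5 groups, as were 17.2% to 20.5% of all genes. Crlf2 was at 6.34 to 12.2 CPM in tumour and 32.1 to 56.0 CPM in host wells, and Il7r at 0.504 to 2.06 and 63.5 to 460 CPM. Host wells were defined by blood-cell genes, so nothing is read from this contrast. Of 11 genes around nitric oxide and arginine, Arg1 competes with Nos2 for arginine. It was at 7.78 CPM in host wells at day 4, 715 at day 10, 1950 at day 16 and 12800 in the fat pad. The tumour wells of the same groups held 0.106, 2.11, 20.1 and 84.3 CPM. Among host clusters, the macrophage-like one held 3658 CPM of Arg1 and no other more than 25.3 CPM. That cluster made up 14 of 359, 17 of 41, 61 of 119 and 10 of 10 host wells in the same order. The part of this cell mix in the host levels was not tested. Ass1, which takes part in remaking arginine, was at 41.3 CPM in cultured 4T1 and 6.96 CPM in cultured 4T1.2 cells.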

How the data were processed

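The values the authors deposited are counts, whole numbers of reads for each gene symbol in each cell, from full-length Smart-seq2 libraries, with no molecular barcodes. Per the submitters' processing notes, Trim Galore 0.6.6 and FastQC 0.11.7, STAR 2.6.0c with build mm10, featureCounts 1.6.2, SAMtools 1.7, Seurat 3.1.2 and R 3.6.2 were among the tools, with no role stated. The annotation and strand setting are not given in the sources used here. Of 40840 entries, 40756 genes were kept. The 78 ERCC entries (0.670% of counts), 2 reporters (0.187%) and 4 date-like symbols (0.0149%) stayed out of library sizes. Cells needed 1000 detected genes, 50000 counts and at most 25% mitochondrial counts. No pair of cells held identical counts, and no doublet caller was run. Wells whose keratin and blood-cell sums lay within 10-fold of each other were left out as an alternative.

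Counts were summed per group and kind of well and divided by their total to give CPM. Ratios are log2 of CPM plus 5, and 2-fold counts as a difference where 1 side has 5 CPM. A well with 10 CPM counts as carrying a gene. No test was made, since each group is 1 sample and cells are not replicates. Host wells were clustered without the 7 genes in scanpy 1.11.5 and igraph 0.11.9 (2000 variable genes, 20 components, 15 neighbours, resolution 1, and 0.5 as a check), and named where 3 markers of a cell class reached a median of 50 CPM and that class alone had the most markers among the cluster's 10 leading genes by fold. Alternatives were edgeR 4.0.16 TMM and DESeq2 1.42.0 scaling factors, equal weight for wells, a pseudocount of 1 CPM, no filters, strictly separated wells and sums without the top well. Beyond the 7 genes, those named are the 2 members of each pathway list furthest each way in a comparison, and the 3 genes with the highest Pearson r over the 7 tumour-well sums among genes with 20 CPM; other list members (Il1rap and Il1rl1 among them) and nearest genes across wells were chosen after their values were seen. The genes and lists were chosen with earlier results of these data known. Python 3.11.15, numpy 2.4.6, pandas 2.3.3, scipy 1.17.1, matplotlib 3.10.9 and R 4.3.3 were used. The steps were tested on data simulated for 4T1 day 4 against culture alone. There, 50 of 50 genes planted 4-fold higher and 21 of 50 planted 2-fold higher passed 2-fold. So did 48 of 50 planted 4-fold lower, 13 of 50 planted 2-fold lower and 1 of 6465 unchanged genes. How the steps perform for the 7 genes was not tested. Spread between animals or cultures was not tested either.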

Additional observations from a re-analysis of the deposited data

How the results depend on the processing

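Of 53 calls of 2-fold among the 7 genes, 45 held in all 8 alternative settings. The pseudocount of 1 CPM and the lack of a minimum CPM could not lose a call by construction. Many calls were of tumour against host wells, the contrast known when the genes were picked. In tumour-well comparisons, every Il1b call was lost in some setting except 4T1.2 day 4 against culture. Also lost in a setting were Il1rn in 4T1.2, Il1r1 for day 16 against fat pad, and Il1a for fat pad tumour against host wells. With wells at least 10-fold apart, the log2 ratio of Il1b was -0.14 from day 4 to day 10, the opposite sign, and no gene of the 7 passed 2-fold there (0) or between the lines at day 4 (0), where Il1b was at 0.98. Without the top well of each gene, the day 10 count was also 0. Il1b between day 4 and culture was 0.51 in strictly separated wells and 0.97 without the top well, and Il1rn in 4T1.2 fell as low as 0.53. Those alternatives use fewer wells. With a pseudocount of 1 CPM, the genes past 2-fold were 1428 for 4T1 day 4 against culture, 1513 for 4T1.2 day 4 against culture, 1329 for day 10 against day 4 (761 as reported), 1978 for day 16 against the fat pad, 1307 between the lines in culture and 1602 between them at day 4. A smaller pseudocount raises ratios of low genes by construction. Scaling moved the share of higher calls by over 10 points in several comparisons: with TMM from 59.0% to 70.3% for day 4 against culture, from 44.5% to 57.0% for the fat pad against culture and from 45.3% to 35.0% between the lines at day 4; with DESeq2 factors from 62.9% to 75.1% for day 10 against day 4. For tumour against host wells DESeq2 factors moved it from 57.2% to 42.3% at day 10, from 57.1% to 45.1% at day 16 and from 67.8% to 49.8% in the fat pad. The median log2 ratio of all genes in the fat pad was 0.45 as reported. No paired analysis was possible because cell numbers only name cells and no test was made. With 1 sample per group, the spread between animals or cultures cannot be given.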
